A study of Caenorhabditis elegans with 2 samples.

Results

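The nuclear hormone receptor genes of Caenorhabditis elegans are described here as sites of DAF-16 binding. The family was taken as all genes whose symbol is nhr- followed by a number in the Ensembl annotation of WBcel235, the assembly that ce11 names. This gave 269 genes, all protein-coding, of 19973 nuclear protein-coding genes. The data are chromatin immunoprecipitation and sequencing of DAF-16, the FOXO factor of insulin signalling, from whole L4 hermaphrodites collected 54 hours after synchronisation as starved L1 larvae. Both libraries came from strain ZM7247, which carries the deletion allele daf-16(mu86), the reduced-function insulin receptor allele daf-2(e1370) and the insertion hpSi4, in which Pmyo-3 drives GFP::daf-16a. Because the myo-3 promoter is active in body wall muscle, the genotype places the tagged factor in that tissue, whereas the chromatin came from all tissues of the animal. A further label describes a C-terminal GFP-FLAG tag, an order that differs from the one in the genotype. The labels also differ on the antibody, since the description names one against GFP and the antibody field names daf-16. The 2 biological replicates formed 1 group, and no other genotype or input library was analysed here, so all comparisons are between genes.

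Nuclear hormone receptors are transcription factors with a zinc-finger DNA-binding domain and a ligand-binding domain, and many respond to lipophilic molecules such as steroids and fatty acids. The nematode family is far larger than that of flies or mammals, and most of its members descend from an ancestor related to the vertebrate receptor HNF4. The best studied members act in fat metabolism, molting, the response to toxins and development. DAF-16 acts on stress resistance, metabolism and lifespan when insulin signalling is low, and some receptors, nhr-49 among them, act in the same processes.

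A summit was assigned to a gene when it lay in the promoter window, from 1000 bp upstream to 200 bp downstream of the most upstream annotated 5' end, or in an intron. Each peak has a signal given by the authors' peak caller, whose scale no source used here gives, so peaks are ranked only within one list. Replicate values are set side by side as raw signals, uncorrected for depth. The list medians were 10.1 in replicate 1 and 12.2 in replicate 2. Nearly equal or unequal raw values are thus a description and no measure of agreement. The pooled list holds 30000 candidates, many of them weak, and the list that passed the irreproducible discovery rate (IDR) filter holds its 2563 strongest peaks, with signals of 60.5 and above. An IDR summit lay in the window of 9 of the 269 nhr genes, or 3.35% (Wilson 95% interval 1.77 to 6.24%), against 6.25% of all protein-coding genes. Any pooled candidate lay in the window of 39 nhr genes, or 14.5% (10.8 to 19.2%), against 32.9% of all. In the list of replicate 1 that count was 61 nhr genes, or 22.7%, against 31.9% of all genes. In that of replicate 2 it was 41, or 15.2%, against 30.6%. In introns the shares were 7 nhr genes with an IDR summit, or 2.60% (1.27 to 5.27%), against 2.64% of all genes with an intron, and 2 nhr genes when only the IDR peaks of at least median signal were kept. For any intronic candidate they were 48 nhr genes, or 17.8% (13.7 to 22.9%), against 23.2%. The family's share was thus below that of all genes in promoter windows, and its IDR share in introns lay close to it. These intervals treat genes as independent draws and describe counting error only, and no test of the family against other genes was run.

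In all, 15 nhr genes, or 5.58% (3.41 to 9.0%), had an IDR summit in the window or an intron, against 8.38% of all protein-coding genes. Among these 15 genes, nhr-40 was the only one with both. The 21 distinct IDR peaks at these genes were split between windows, with 10, and introns, with 11. Another 46 genes had weaker candidates only, and the remaining 208 nhr genes had no candidate in either place. Any candidate in the window or an intron was thus found for 22.7% of nhr genes (18.1 to 28.0%), against 42.5% of all protein-coding genes. Where a window held a candidate, the median of its strongest pooled signal was 25.2 over 39 nhr genes (95% order-statistic interval 15.5 to 42.8) and 23 over 6580 genes of all kinds. In the single lists the family was below all genes, with 10.3 against 12.7 in replicate 1 and 13.1 against 15.3 in replicate 2, so these data give no stable direction.

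**Figure D1:**
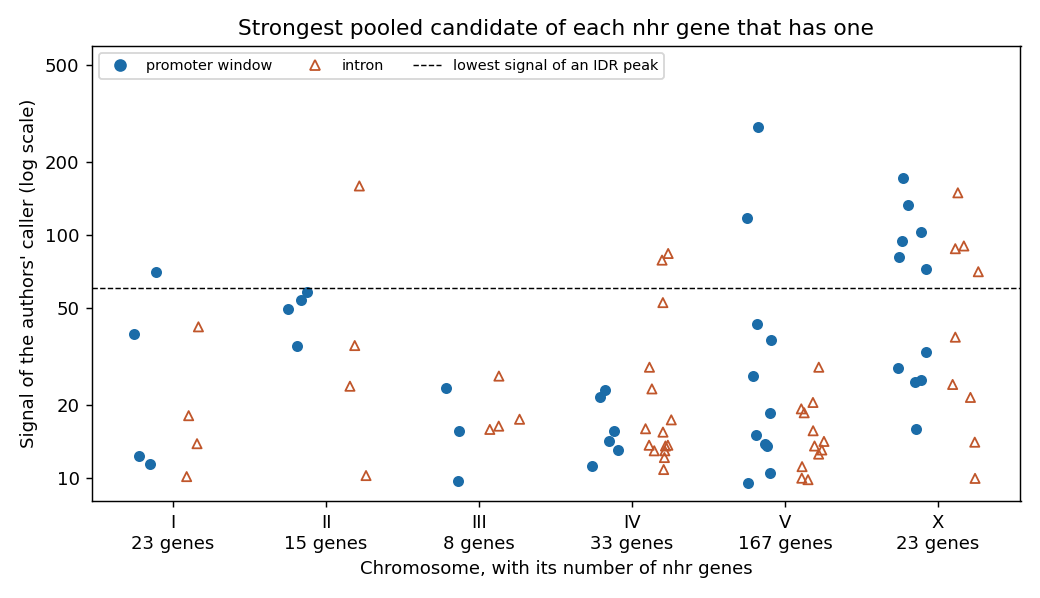
Pooled signal (log axis, units of the authors' caller) of the strongest candidate of each nhr gene that has one, by chromosome, with circles for promoter windows, triangles for introns and a dashed line at the lowest IDR signal, 60.5. Above the line are 9 circles, 6 of them on X, and 7 triangles, while most of the 167 genes on V have no point.

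Among receptors of fatty acid and propionate metabolism, nhr-68 carried the strongest peak of the family. Together with nhr-10, nhr-68 activates a propionate breakdown route when propionate persists. The gene lies on the plus strand of V (ce11, 11573440 to 11575709), and the summit is 385 bp upstream of its 5' end. The signal was 147 in replicate 1, 133 in replicate 2 and 279 in the pooled list, rank 111 of 30000. The raw values of the replicates were close, and the peak ranked 97 in replicate 1 and 144 in replicate 2. It is among the stronger ones of the data set. The same summit lies in the window of H12C20.7, whose 5' end is nearer to it, so the peak cannot be given to one of these genes alone. A weaker candidate 184 bp upstream of nhr-68 had a pooled signal of 38.7, with 36.3 in replicate 1 and no match in replicate 2. The bases around the stronger summit are shown because this is the family's top site. They come from the plus strand of chrV:11572991-11573130 in ce11, with TCTCTC, the reverse complement of GAGAGA, in capitals:
nhr-68 promoter: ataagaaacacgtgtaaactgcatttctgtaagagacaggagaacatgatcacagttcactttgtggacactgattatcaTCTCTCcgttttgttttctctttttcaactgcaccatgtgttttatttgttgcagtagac

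The nhr-68 gene stands 890 bp from nhr-101, which precedes it on the same strand. Their proteins share 74.1% identity over 382 aligned residues, the closest pair among the family members with an IDR peak. The neighbour nhr-101 had only weak candidates, with a pooled signal of 15 in the window, which neither replicate list matched. An intronic candidate of nhr-101 had 28.5, with 7.91 in replicate 1 and 11.8 in replicate 2. Of these related neighbours, one thus had a peak far above the IDR minimum and the other had none above it.

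The second metabolic receptor with an IDR peak was nhr-49, an HNF4-related regulator of fatty acid desaturation and beta-oxidation. Its summit lay 342 bp upstream of the gene (ce11, plus strand of chromosome I, 9869651 to 9874680), with 38.5 in replicate 1, 40.5 in replicate 2 and 70.1 in the pooled list. This peak was the weakest of the 21 IDR peaks at nhr genes, with nearly equal values in the replicates. Intronic candidates of nhr-49 reached 41.8, matched in replicate 2 alone with 21.6. The neighbouring nhr-69, 4502 bp away and 38.9% identical over 365 residues, had a window candidate of 11.4.

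The other metabolic receptors had weaker candidates or none. The gene nhr-10, the partner of nhr-68 in the propionate response, had 15.5 in its window and 26.2 in an intron. The gene nhr-66, which acts with nhr-49 in lipid metabolism, had 15.5 in its window and 28.5 in an intron. The gene nhr-13, another partner of nhr-49, had a single intronic candidate of 9.81. No candidate lay in the window or introns of nhr-80, a desaturase regulator that pairs with nhr-49, of nhr-62, which acts in dietary restriction, or of nhr-114, which acts in the response to diet. Over the 8 metabolic receptors, 2 had an IDR summit in the window (7.15 to 59.1%), beside 6.25% of all genes. None had one in an intron, beside 2.64%. Earlier results of these data on nhr-68 were known when the list was written, so the window share is a description only.

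None of the 5 receptors listed for stress and detoxification had an IDR summit in the window or an intron, beside 8.38% of all genes. So small a count leaves room for a share of up to 43.4% (Wilson). The strongest of them was nhr-57, a gene induced in hypoxia, whose window summit 299 bp upstream had 27 in replicate 1, 12.2 in replicate 2 and 36.9 in the pooled list. The gene nhr-14, linked to iron uptake and pathogen defence, had 15.9 in its window and 24.2 in an intron. For nhr-86, a receptor in the defence against pathogens, the only candidates were intronic and reached 20.4. The gene nhr-8, a receptor in xenobiotic resistance and cholesterol balance, had intronic candidates of 13.5 and 12.9. No candidate was listed at nhr-176, a regulator of the metabolism of the drug thiabendazole.

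Of the 9 receptors with clear counterparts in flies and mammals, nhr-48 alone had an IDR summit, or 11.1% (1.99 to 43.5%), beside 6.25% of all genes. Earlier results of these data on nhr-48 were known when the list was written, so this share too is a description only. The gene nhr-48 belongs with nhr-8 and daf-12 to the group related to the vertebrate vitamin D and pregnane X receptors. Its first summit lay 631 bp upstream of the gene (ce11, plus strand of X, 15708213 to 15716875), with 58.0 in replicate 1, 84.0 in replicate 2 and 133 in the pooled list. A second IDR summit, 203 bp closer to the gene at 428 bp upstream, had 71.1 in the pooled list, 22.7 in replicate 1 and no match in replicate 2. Peaks this close overlap, so they describe one region with a clear main summit. The bases at the main summit are shown because this is the conserved receptor with a peak. They come from the plus strand of chrX:15707507-15707657 in ce11, with GAGAGA in capitals:
nhr-48 promoter: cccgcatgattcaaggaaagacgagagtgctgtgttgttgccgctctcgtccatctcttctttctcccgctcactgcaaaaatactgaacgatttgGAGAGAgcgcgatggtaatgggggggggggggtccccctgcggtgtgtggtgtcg

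The other conserved receptors had candidates below the IDR minimum or none. The gene nhr-25, counterpart of fly Ftz-F1 and needed for molting and epidermal development, had 18.8 in replicate 1, 12.7 in replicate 2 and 32.9 in the pooled list, 43 bp upstream of its 5' end. The gene nhr-41, counterpart of fly DHR78, had a window candidate of 21.4, matched in replicate 1 alone. The gene nhr-23, counterpart of fly DHR3 and a driver of molting, had 12.3 in its window and 13.8 in an intron. Intronic candidates reached 18 in nhr-85, related to fly E75, 15.8 in nhr-6, an NR4A receptor, and 10.8 in nhr-67, the tailless counterpart. No candidate was found at nhr-91, counterpart of fly DHR4, and nhr-8, the remaining one, is given above.

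Of the 3 receptors listed for development and muscle, nhr-40, which acts in embryonic development and body wall muscle, was the only one with candidates. None was listed at nhr-2, a gene of the early embryo, or at nhr-60, which acts in epidermal seam cells. That is 33.3% (6.15 to 79.2%) with a candidate in the window or an intron, beside 42.5% of all genes. An IDR summit lay there in 8.38% of all genes, and 3 receptors are too few to compare. In nhr-40 (ce11, plus strand of X, 2594003 to 2606732) 3 IDR summits were spread over the promoter and a long first intron. The upstream summit, 730 bp before the 5' end, had 53.9 in replicate 1, 37.6 in replicate 2 and 94.2 in the pooled list, and it also lies in the window of T03G6.7. The first intronic summit, 1670 bp downstream, had 39.3 in replicate 1, 45.1 in replicate 2 and 87.7 in the pooled list. The second, 4927 bp downstream, had 35.8 in replicate 1 and 79.2 in the pooled list, with no match in replicate 2. A candidate at 5128 bp downstream, below the IDR minimum with 54.5, was in turn matched in replicate 2 alone, with 51.3. The replicates thus placed their summits at neighbouring positions of the same stretch. The bases of the 3 IDR summits are shown because no other nhr gene had so many, all on the plus strand of ce11 at chrX:2593198-2593348, chrX:2595598-2595748 and chrX:2598855-2599005. Capitals mark CAGCTG, an E-box of the type that muscle factors such as HLH-1 bind, and TCTCTC, the reverse complement of GAGAGA, and the promoter sequence holds neither:
nhr-40 promoter: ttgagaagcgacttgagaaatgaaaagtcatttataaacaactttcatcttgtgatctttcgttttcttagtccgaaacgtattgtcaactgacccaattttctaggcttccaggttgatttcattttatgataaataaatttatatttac
nhr-40 first intronic summit: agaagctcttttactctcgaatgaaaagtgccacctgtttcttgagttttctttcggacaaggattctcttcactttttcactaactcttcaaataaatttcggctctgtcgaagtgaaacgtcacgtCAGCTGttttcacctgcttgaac
nhr-40 second intronic summit: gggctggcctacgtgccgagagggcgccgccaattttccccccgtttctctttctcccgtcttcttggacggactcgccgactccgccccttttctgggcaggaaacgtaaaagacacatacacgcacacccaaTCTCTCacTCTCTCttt

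The other IDR peaks in promoter windows lay at receptors for which no role is given here. The strongest was at nhr-1 (ce11, plus strand of X, 17514063 to 17528197), 393 bp upstream, with 86.5 in replicate 1, 87.4 in replicate 2 and 171 in the pooled list. Its replicate values were nearly equal and no other gene's window holds it, so its sequence is shown as the clearest promoter site of the family, with TCTCTC in capitals, from the plus strand of chrX:17513595-17513745 in ce11:
nhr-1 promoter: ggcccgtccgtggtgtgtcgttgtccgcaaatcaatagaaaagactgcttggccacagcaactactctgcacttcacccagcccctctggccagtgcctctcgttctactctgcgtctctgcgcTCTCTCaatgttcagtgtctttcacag

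At nhr-47, on the plus strand of V from 5505253 to 5509956, the summit lay in the first exon, 11 bp past the 5' end, and in the window of the chaperone gene dnj-19. Its signal was 53.7 in replicate 1, 63.4 in replicate 2 and 117 in the pooled list. At nhr-32, on X, the summit 277 bp upstream had 38.3 in replicate 1, 62.1 in replicate 2 and 103 in the pooled list. At nhr-35, on X, the summit 419 bp upstream had 38.8 in replicate 1, 31.2 in replicate 2 and 72.4 in the pooled list. At nhr-255, on X, the summit 553 bp upstream had 35.8 in replicate 1, 41.4 in replicate 2 and 80.9 in the pooled list. That last summit falls inside an annotated tRNA gene and the peak holds a stretch of 31 bases present more than once in the genome. All 4 peaks were thus found in both replicates, with the largest gap between them at nhr-32.

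Intronic IDR peaks were led by nhr-19 (ce11, minus strand of II, 9598180 to 9605526), which held a pair of strong summits in its long second intron. The one 3638 bp downstream of the 5' end had 83.7 in replicate 1, 71.6 in replicate 2 and 159 in the pooled list. The one 1909 bp downstream had 62.9 in replicate 1, 96.5 in replicate 2 and 158 in the pooled list. They tie in the pooled list, while their order differs between the replicates. Weaker candidates of nhr-19 lay at 4286 and 5285 bp downstream, with 57.3 and 51.0, and at 4 bp downstream, with 53.9. The sequences of the strong pair are shown as the family's top intronic sites, both from the plus strand of ce11, at chrII:9601813-9601963 and chrII:9603542-9603692, with GAGAGA or its reverse complement in capitals:
nhr-19 intron, far summit: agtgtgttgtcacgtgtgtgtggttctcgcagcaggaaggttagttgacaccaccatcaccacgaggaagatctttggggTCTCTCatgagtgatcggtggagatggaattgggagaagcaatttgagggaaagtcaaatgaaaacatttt
nhr-19 intron, near summit: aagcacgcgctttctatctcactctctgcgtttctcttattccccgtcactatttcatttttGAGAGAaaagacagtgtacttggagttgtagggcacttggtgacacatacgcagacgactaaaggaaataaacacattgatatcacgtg

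The longest nhr gene with a peak was nhr-27, on the minus strand of X from 12705563 to 12808318, with 101453 bp of intron and 16 intronic candidates. Its IDR summit 10457 bp downstream had 52.8 in replicate 1, 38.4 in replicate 2 and 90.0 in the pooled list and also falls within the gene gei-3. The summit 46848 bp downstream had 45.1 in replicate 1, 44.2 in replicate 2 and 89.7 in the pooled list and lies in the promoter window of cept-1, a phospholipid synthesis gene. Both peaks of nhr-27 were thus placed at other genes as well. The sequence at the far one is shown for its unbroken run of CT repeats, in capitals, from the plus strand of chrX:12761395-12761545 in ce11:
nhr-27 intron: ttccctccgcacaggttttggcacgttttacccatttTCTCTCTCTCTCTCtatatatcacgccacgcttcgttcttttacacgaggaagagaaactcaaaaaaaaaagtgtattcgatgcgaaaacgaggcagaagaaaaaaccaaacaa

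Intronic IDR peaks of the genes nhr-34, nhr-46 and nhr-3 had signals below the IDR median of 94.2, and those of nhr-17 lay beside a tRNA gene. In nhr-34, on IV, the summit 4426 bp downstream had 43.8 in replicate 1, 39.5 in replicate 2 and 83.8 in the pooled list. In nhr-46, also on IV, the summit 3633 bp downstream had 29.8 in replicate 1, 49.9 in replicate 2 and 78.7 in the pooled list. In nhr-3, on X, the summit 2060 bp downstream had 31.5 in replicate 1, 38.2 in replicate 2 and 70.5 in the pooled list. The least even values were in nhr-17, on X, where 2 IDR summits flank a tRNA gene at 54 and 77 bp and both peaks hold a 31-base sequence found again in the genome. The summit 2680 bp downstream had 149 in the pooled list, no match in replicate 1 and 72.0 in replicate 2. The summit 2466 bp downstream had 83.7 in the pooled list, 83.5 in replicate 1 and 19.3 in replicate 2.

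**Figure D2:**
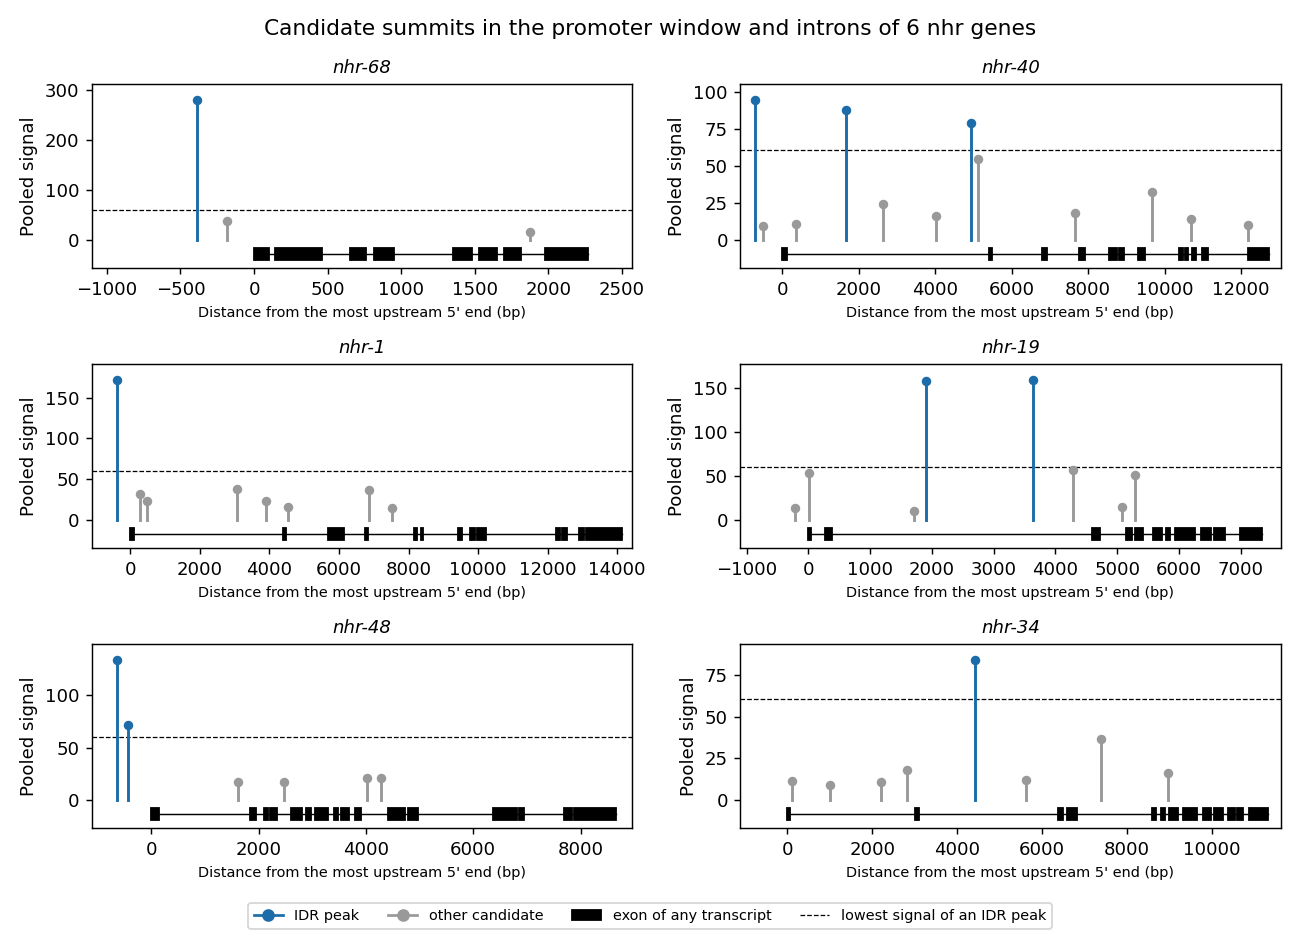
Candidate summits of nhr-68, nhr-1, nhr-48, nhr-40, nhr-19 and nhr-34, with the pooled signal as height and the distance in bp from the most upstream 5' end along the gene (black boxes are exons, blue stems IDR peaks, grey stems other candidates, the dashed line the lowest IDR signal). The IDR peaks of nhr-68, nhr-1 and nhr-48 lie upstream, those of nhr-19 and nhr-34 lie in introns, and nhr-40 has both.

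Both replicate lists had a summit at most 100 bp away for 18 of these 21 peaks, against 95% of 2540 nuclear IDR peaks. The 3 without a match in one replicate were those of nhr-48, nhr-17 and nhr-40 described above, each with another candidate about 200 bp away. Among the 18, the ratio of the replicate 2 signal to the replicate 1 signal ran from 0.231 at nhr-17 to 1.67 at nhr-46, with a median of 1.03, against 1.09 over nuclear IDR peaks. Signals at nhr genes were ordinary for the IDR list, with a median of 89.7 against 94.2 over all IDR peaks, and 9 of the 21 reached the IDR median. Of the 155 other candidates at nhr genes, 33, or 21.3%, were matched in both replicates, against 22.4% of all nuclear candidates outside the IDR list.

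**Figure D3:**
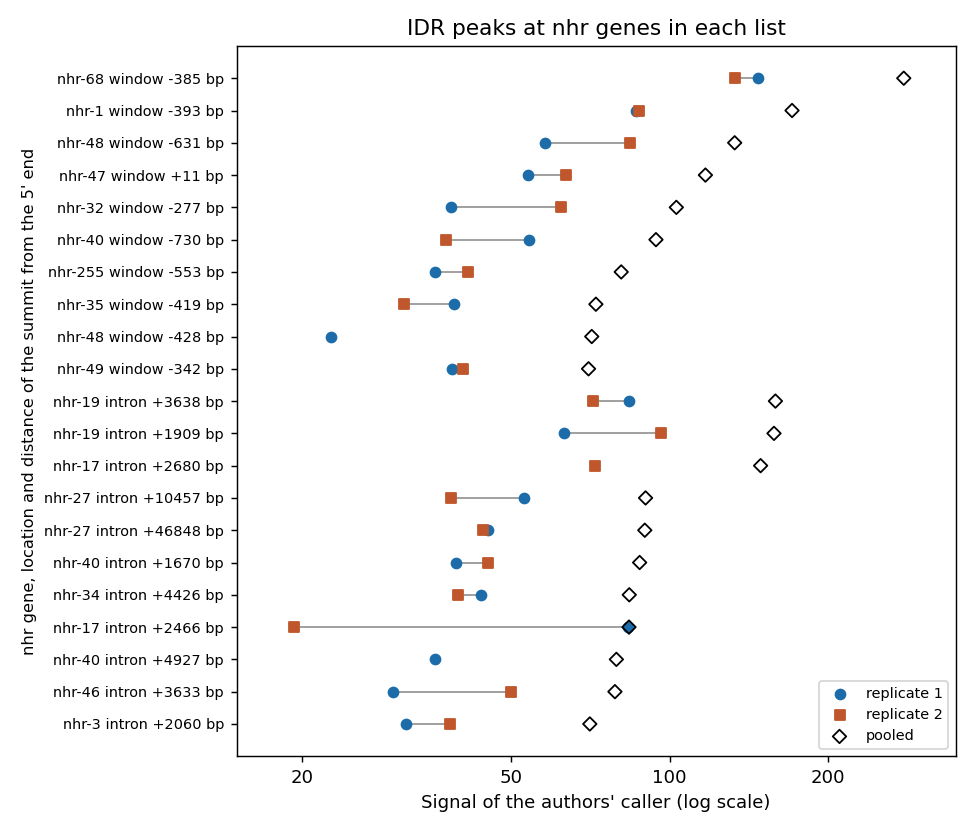
Signal (log axis, units of the authors' caller) of each of the 21 IDR peaks at nhr genes in replicate 1, replicate 2 and the pooled list, 1 line per peak, with windows above introns. The replicates of nhr-1 and nhr-49 nearly coincide, those of the nhr-17 summit at 2466 bp lie farthest apart, and 3 peaks lack one of the replicate points.

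Just below the IDR minimum of 60.5, the strongest window candidate was at nhr-119, on II, with 58.1 in the pooled list, 26.9 in replicate 2 and no match in replicate 1. In nhr-97, on IV, an intronic candidate had 27.2 in replicate 1, 24.5 in replicate 2 and 52.6 in the pooled list. The window of nhr-88, on II, held a candidate 47 bp past the 5' end with 28.7 in replicate 1, 21.1 in replicate 2 and 49.6 in the pooled list. That of nhr-256, on V, held one with 29.0 in replicate 1, 7.76 in replicate 2 and 42.8 in the pooled list. That of nhr-64, the closest protein to nhr-49 in the family at 36.9% identity, had 11.7 in replicate 1, 26.2 in replicate 2 and 39.0 in the pooled list. Genes of the family just inside and just outside the filter thus differed little in signal, from 70.1 at nhr-49 to 58.1 at nhr-119.

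Peaks were unevenly spread over the chromosomes. Most of the family is on V, which holds 167 nhr genes, or 62.1% of them, against 25% of all protein-coding genes. Another 33 are on IV, 23 each on X and on I, 15 on II and 8 on III. On X, 6 of 23 nhr genes had an IDR summit in the window, or 26.1% (12.5 to 46.5%), against 8.53% of all genes there. On V it was 2 of 167, or 1.20% (0.329 to 4.26%), against 4.41%, and on the other autosomes 1 of 79, or 1.27% (0.224 to 6.83%), against 6.50%. The intervals of X and of V do not overlap, although only 23 genes stand behind the share on X. For any candidate in the window the shares were 47.8% of nhr genes and 34.9% of all genes on X, 6.59% of nhr genes and 21.7% of all genes on V, and 21.5% of nhr genes and 37.1% of all genes on the other autosomes. X was thus the highest of the 3 for nhr genes, but not for all genes. Outside V and X, an intronic candidate lay in 27 of 79 nhr genes, or 34.2% (24.7 to 45.2%), against 26% of all genes. An intronic IDR summit lay there in 3 of 79, or 3.80% (1.30 to 10.6%), against 2.44%. Both intervals include the share of all genes. On X the intronic IDR share was 17.4% of nhr genes (6.98 to 37.1%), against 5.4%, and the candidate share 39.1% (22.2 to 59.2%), against 28.3%. Over all autosomes the intronic IDR share was 1.22% (0.416 to 3.52%), against 2.21%. On IV the intronic candidate share was 45.5% of nhr genes (29.8 to 62%), against 23% of all genes, and on V it was 7.19% of nhr genes, against 13.6%. The median intron length per gene was 1768 bp in nhr genes and 794 bp in all genes on IV, and 768 and 601 bp on V. Over the whole family there were 24.8 candidates per 100 kb of intron, against 29.1 in all genes. The part of intron length in these shares was not tested. Of the 208 nhr genes with no candidate in the window or an intron, 149 were on V. There 10.8% of nhr genes had such a candidate, against 27.8% of all genes. Of the 21 IDR peaks at the family, 14 were on X, or 66.7%, against 28.8% of nuclear IDR peaks.

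**Figure D4:**
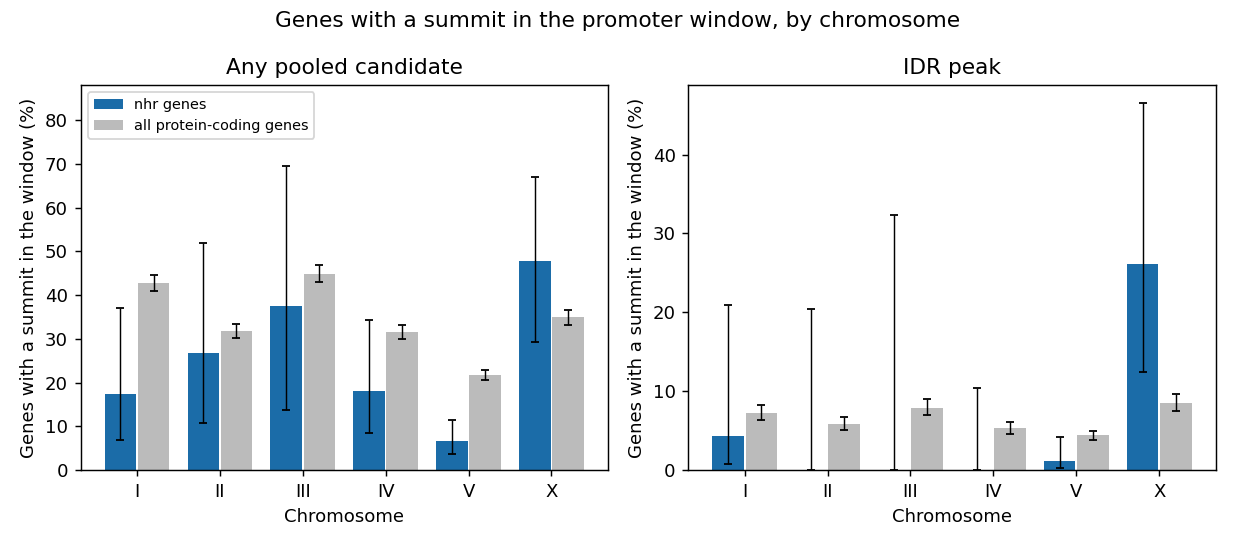
Share of nhr genes (blue) and of all protein-coding genes (grey) with a summit in the promoter window, in percent with Wilson 95% intervals, by chromosome, for any pooled candidate on the left and for IDR peaks on the right. The blue bar is the higher one on X and the lower one on every autosome in both panels, and the blue intervals are wide because few nhr genes lie on most chromosomes.

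Receptor genes with close neighbours of the family rarely had peaks. When nhr genes at most 20 kb apart were joined, 173 members fell into 45 clusters of 2 to 12 genes, 30 of the clusters and 128 of these members being on V, and 96 members stood apart. An IDR summit lay in the window of 2 of 173 clustered members, or 1.16% (0.318 to 4.12%), and of 7 of 96 members outside clusters, or 7.29% (3.58 to 14.3%). Over all protein-coding genes the share was 6.25%, which the interval of members outside clusters includes. With gaps of up to 50 kb, 4 of 190 clustered members had an IDR summit in the window. Any candidate lay in the window of 10 clustered members, or 5.78%, and of 29 of those outside, or 30.2%, beside 32.9% of all genes. Clustering and chromosome cannot be fully told apart, since most clustered members are on V. On V alone the IDR counts were 1 of 128 clustered members and 1 of 39 others, so a difference was not detectable there. Off V they were 1 of 45 clustered members and 6 of 57 others, and on X 0 of 7 and 6 of 16, beside 8.53% of all genes on X. Besides the pairs of nhr-68 and nhr-101 and of nhr-49 and nhr-69, one more cluster with IDR peaks joined nhr-26, nhr-214, nhr-272 and nhr-27 on X. Within it only nhr-27 had any candidate, although nhr-214 and nhr-272 share 73.7% identity with each other and nhr-272 shares 43.2% with nhr-27.

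Protein relatives of the genes with peaks were compared next. For each of the 15 genes with an IDR peak, the closest protein in the family was found by alignment, with identities from 30.3% to 74.1%, and no higher than 43.2% apart from nhr-68 and nhr-101. In 3 of the 15 cases the closest relative also had an IDR peak, while 5.58% of all nhr genes have one, and nhr-1 is the relative in 2 of these cases. These were nhr-47 and nhr-17, both closest to nhr-1, and nhr-46, closest to nhr-34.

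Repeated sequence, where short reads are hard to place, was about as common in the windows of the family as elsewhere on average, but not on each chromosome. On average 5.48% of the 31-base sequences in the windows of nhr genes occur again in the genome, against 5.94% for all protein-coding genes. On V these means were 4.63% for nhr genes and 7.15% for all genes, and on X 0.286% for nhr genes and 3.49% for all genes. On I they went the other way, with 15.1% for nhr genes and 5.74% for all genes. Windows with over 10% repeated sequence were 20% of nhr genes and 15.9% of all genes on II, and 21.2% of nhr genes and 18.1% of all genes on IV. The mean was 2.84% in the 39 nhr windows with a candidate and 5.92% in the other 230. Of the 21 IDR peaks, the 3 at nhr-17 and nhr-255 hold such a sequence, against 14.6% of nuclear IDR peaks.

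Genes with intronic IDR peaks had long introns. The 7 nhr genes with an IDR summit in an intron had a median of 8051 bp of intron, from 1185 bp in nhr-3 to 101453 bp in nhr-27, and the other 262 had a median of 879 bp. Per 100 kb of intron there were 2.10 IDR summits in nhr genes and 2.00 in all genes, and without nhr-27 the value for the family was 2.13. On X the values were 4.18 in nhr genes and 3.52 in all genes. In windows, 9 of the 10 summits were upstream of the 5' end, or 90.0%, against 93.5% for all genes, with a median position of 406 bp upstream in nhr genes and 263 bp upstream in all genes.

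Of the 4 motifs searched, GAGAGA was found at the most peaks, and none of the 4 was part of how the genes were chosen. The search covered 100 bp on each side of a summit and both strands. GAGAGA was found at 15 of the 21 IDR peaks, or 71.4% (50 to 86.2%), against 41.3% of nuclear IDR peaks and 42.3% of the 1647 in windows or introns of protein-coding genes. It was at all 7 peaks on autosomes and at 8 of 14 on X, where the share of all genes' peaks was 40.2%. By place it was at 7 of 10 in windows and 8 of 11 in introns. GAGAGA was near 30 of the 155 weaker candidates at nhr genes, beside 16.1% of all such nuclear candidates. The interval treats the 21 peaks as independent, although the 2 peaks of nhr-48 overlap, as do those of nhr-17. The DAF-16 binding element, TGTTTAC, was at none of the 21 peaks, which allows a share of up to 14.3%, so no difference from nuclear IDR peaks, with 8.98%, was detectable. Within 200 bp it was at 1, that of nhr-32, against 12.4%. It was near 4 of the 155 weaker candidates, or 2.58%, close to the 2.45% of all such nuclear candidates, and the candidate 4 bp past the 5' end of nhr-19 is one of them. The DAF-16 associated element, CTTATCA, was at none of the 21, against 3.78%. The E-box CAGCTG was at 1, the first intronic summit of nhr-40, against 10.5%. A match is a description of these letters, and none of the 4 motifs contains another.

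Genes that work with nuclear receptors but lie outside the nhr names were taken as a list of 18, and 3 of them, or 2 co-regulators and 1 target, had an IDR summit in the window, beside 6.25% of all protein-coding genes. Of 5 other receptors none had one, yet daf-12, the receptor for dafachronic acids that governs dauer formation, had 20 intronic candidates, 2 of them IDR peaks. That is 1 of 5 with an intronic IDR summit, beside 2.64% of all genes with an intron and 5.4% of those on X. The stronger IDR peak of daf-12 had 74.3 in replicate 1, 77.4 in replicate 2 and 152 in the pooled list. The receptor sex-1 had 13.6 in its window and 39.3 in an intron, and fax-1, unc-55 and odr-7 had no candidate. Of the 4 genes of ligand synthesis, daf-9, the cytochrome P450 that makes dafachronic acid, had weak candidates up to 17.4, and daf-36, dhs-16 and hsd-1 had none.

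Co-regulators held the strongest peak of that list, at cbp-1, the acetyltransferase related to mammalian CBP and p300, with 109 in replicate 1, 113 in replicate 2 and 221 in the pooled list. The gene din-1, a corepressor partner of DAF-12, had 29.2 in replicate 1, 56.4 in replicate 2 and 85.1 in the pooled list in its window. It also had 3 IDR peaks in introns, the strongest with 156. Of the 4 co-regulators it alone had an intronic IDR summit, beside 2.64% of all genes with an intron. Intron lengths of daf-12 and din-1 were not compared. The Mediator subunit gene mdt-15, which works with nhr-49, had a window candidate of 16.8, and gei-8 had none. Among 5 known targets of nhr-49, nhr-80 or nhr-10, acs-2, an acyl-CoA synthetase gene, had 73.3 in replicate 1, 32.9 in replicate 2 and 99.0 in the pooled list. The desaturase gene fat-6 had a weak candidate of 13.5, and fat-5, fat-7 and acdh-1 had none. The tagged factor was therefore found at nhr-49 and its target acs-2 in both replicates, while nhr-80 and the desaturase genes held no IDR peak.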

How the data were processed

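Peak lists on ce11 were used as deposited: one for each of the 2 biological replicates, one called on both replicates pooled, and one filtered by IDR. Per the labels they derive from ChIP-seq of whole animals, and a control library is named in the derivation of the lists. Which aligner, caller and IDR cut-off the authors used is not given in the sources used here, nor is any version. The authors' signal value per peak was used to describe and rank peaks within a list, and raw values of the replicates were set side by side. It has no SD, and with no read counts the depth of each library is unknown. Summits were placed from the deposited offset within each peak. The IDR list was checked to be the 2563 strongest of the pooled candidates, and no peak end lay beyond a WBcel235 chromosome. The deposited ce10 lists were not used here.

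Genes came from Ensembl release 115. Introns were parts of a gene in no exon of any of its transcripts. Peaks of different lists were matched when summits lay within 100 bp. Clusters joined nhr genes at most 20 kb apart. The longest coding sequence of each gene was translated and aligned in Biopython 1.88 with BLOSUM62 and a gap opening penalty of 11. Shares have Wilson 95% intervals. The upper limit for a count of 0 used 3 counts. Scripts ran in Python 3.11.15 with pandas 2.3.3. The counting of summits in windows and introns was tested on planted summits with known answers, and the other steps were not tested in this way.

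The members, role lists and windows were chosen with earlier results of these data known. Genes were named if they held an IDR summit, were among the 10 with the strongest other candidate, belonged to a cluster with an IDR summit, or stood in a list by role. Alternatives covered the window, nearest-gene assignment, repeats, peak strength, intron definition, matching distance, cluster gap, motif distance and each replicate left out. Background on gene roles is textbook knowledge and not a result.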

Additional observations from a re-analysis of the deposited data

How the results depend on the processing

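Of 45 alternative values, 6 were classed as moved and 39 as the same, and the limit between these classes is not given here. Values classed as the same could still differ from the main setting. The shorter window held a candidate in 28 nhr genes, against 39, and the longer window in more than 39. With the IDR peaks of at least the median signal, 2 nhr genes kept an intronic IDR summit, against 7 in the full list. Gaps of up to 50 kb put 190 members in clusters, of which 4 had an IDR summit in the window, against 2 with gaps of 20 kb. A DAF-16 binding element lay within 200 bp of 1 IDR summit, that of nhr-32, and within 100 bp of none. With one replicate left out, the 2563 strongest candidates of the other took the place of the IDR peaks. The nhr genes with a window candidate then numbered 41 without replicate 1 and 61 without replicate 2, against 39, and 28 and 29 of these were shared with the pooled list. The median strongest window signal was 13.1 and 10.3, on the scale of each replicate's own list, where all genes had 15.3 and 12.7. The cause of these changes was not tested. The nhr genes with an IDR summit in the window ranged from 8 to 11 over the replicates left out and from 6 to 10 over the other settings. Leaving out replicate 1 lost nhr-35. Leaving out replicate 2 gained nhr-119 and nhr-142, of which nhr-142 had no candidate in the pooled list. Assignment to the nearest start lost nhr-68, the shorter window lost nhr-255 and nhr-40, the filter on repeats lost nhr-255, and the filter on signal lost nhr-255, nhr-35 and nhr-49.

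All values come from 1 strain, 1 stage and 2 libraries. Peak files without read counts give no depth, so a window with no candidate does not show that DAF-16 is absent there. No paired analysis was possible because there is only 1 group. Tissue of origin and the effect of binding on expression were not measured.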
